A study of Mus musculus with 8 samples.

Results

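The mitosis and spindle genes described here are 49 genes whose products drive cell division, from cyclins and mitotic kinases to kinetochore, motor and cytokinesis proteins. They were taken by gene name from the annotation of a whole mouse genome microarray, where 85 of 41174 gene probes carry such a name. Of these probes, 77 were bright enough to be used (of 22642 such probes in all), and each of the 49 genes had at least 1. RNA was compared between Lats2-/- and Lats2+/+ mouse embryonic fibroblasts (MEFs), which are cells grown out from embryos. Both genotypes carried the strain name C57BL/6J, neither received a treatment, and both were kept in DMEM with fetal bovine serum. There were 6 RNA extracts, 1 of each genotype under each of the numbers 112, 116 and 121. The clone names of a Lats2-/- and a Lats2+/+ culture share that number, which is read here as the litter. The age of the embryos and the passage of the cultures are not given in the sources used here. Each of 8 two-colour arrays held both extracts of a litter, 2 for each of litters 112 and 116 and 4 for litter 121, with dyes swapped equally within every litter.

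The product of Lats2 is a kinase of the Hippo pathway, a growth-restraining cascade, that also localises to centrosomes and acts in mitosis. Entry into mitosis depends on cyclin B bound to Cdk1, and exit depends on the anaphase-promoting complex, a ubiquitin ligase that destroys cyclins and securin. Many of the genes for these proteins are transcribed late in the cell cycle, so that their combined RNA level in a culture is widely read as a sign of how many of its cells are dividing. The comparison asks whether RNA of the mitotic machinery differed between MEFs with and without Lats2.

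Every value is a log2 ratio of Lats2-/- over Lats2+/+ within a litter, or a log2 signal of a single extract, as said beside it. A gene is represented by its brightest usable probe, and each error is the SD over 3 litters. Each of these 49 probes was well above background on 8 of 8 arrays in both genotypes. Ratios of the arrays of a litter correlated at 0.917 to 0.99, whereas the 3 litters correlated with each other at only -0.00132 to 0.133 over all usable probes. Litters 112 and 116 lie on slide 1 and litter 121 lies on slide 2, so that litter 121 and its slide cannot be told apart. The targeted gene went partly against its label in litter 121. The log2 ratio of the dimmest Lats2 probe was -1.33, -1.05 and -0.56 in litters 112, 116 and 121. The other 3 Lats2 probes gave -0.70 to -0.18 in litters 112 and 116 and 0.80 to 1.17 in litter 121. Whether the extracts of litter 121 were exchanged was not tested, and the study's western blot of Lats2 in MEFs was not used here. With the sign of that litter turned, the dimmest probe would stand at 0.56 and the others at -1.17 to -0.80. Neither orientation puts all 4 probes below 0. The labels are kept, every direction in litter 121 rests on them, and the main counts, extract levels and gene lists are also given without it. Extract levels and gene lists without litter 121, and every value with that litter turned or its extracts exchanged, were added after seeing the data. All 12 fibroblast markers were usable, with log2 signals from 6.24 to 17.43 over single extracts, so that not all were bright in every extract. Of the markers of other cells, 4 of 7 for macrophages and blood were usable (Cd68, Csf1r, Hba-a1 and Hbb-b1), 1 of 5 for endothelium (Tek), 2 of 6 on the array for epithelium (Krt5 and Krt14) and 2 of 4 for neural cells (Nefl and Tubb3), whereas Ptprc, Emr1, Pecam1, Cdh5, Tie1, Tacstd1 and Sox2 were well above background on no array. Those usable were dim outside the neural list. Their log2 signals were 6.22 to 6.92 for macrophages and blood, 6.36 to 6.68 for Tek and 6.42 to 6.63 for the keratins. The lowest signal of all genes was 5.77.

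The mitosis and spindle genes shared a direction within each litter, but the direction was not the same in all litters. In litter 112 the ratio was below 0 for 49 of 49 genes, with a median of -0.58 (a level in Lats2-/- 1.49-fold lower) and a range of -1.23 to -0.16. Of all 14791 genes with a usable probe, 47.7% were below 0 in that litter. In litter 116 the ratio was below 0 for 46 of 49 genes, with a median of -0.52 and a range of -1.15 to 1.1, against 49.3% of all genes. In litter 121 the direction was the opposite: 45 of 49 genes were above 0, with a median of 0.37 (1.29-fold higher in Lats2-/-) and a range of -0.47 to 1.07, against 50.9% of all genes. The medians over all genes were 0.02, 0.01 and 0.01. Together, 42 of the 49 genes were below 0 in litters 112 and 116 and above 0 in litter 121, a combination that 11.7% of all genes had. The combination was known from an earlier analysis of these data, so its count is a description and not a test. With the sign of litter 121 turned, its median would be -0.37, beside -0.58 and -0.52, and 42 genes would be below 0 in all 3 litters. The genes are co-expressed and were chosen as a group, so they are not 49 independent observations of it.

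**Figure D1:**
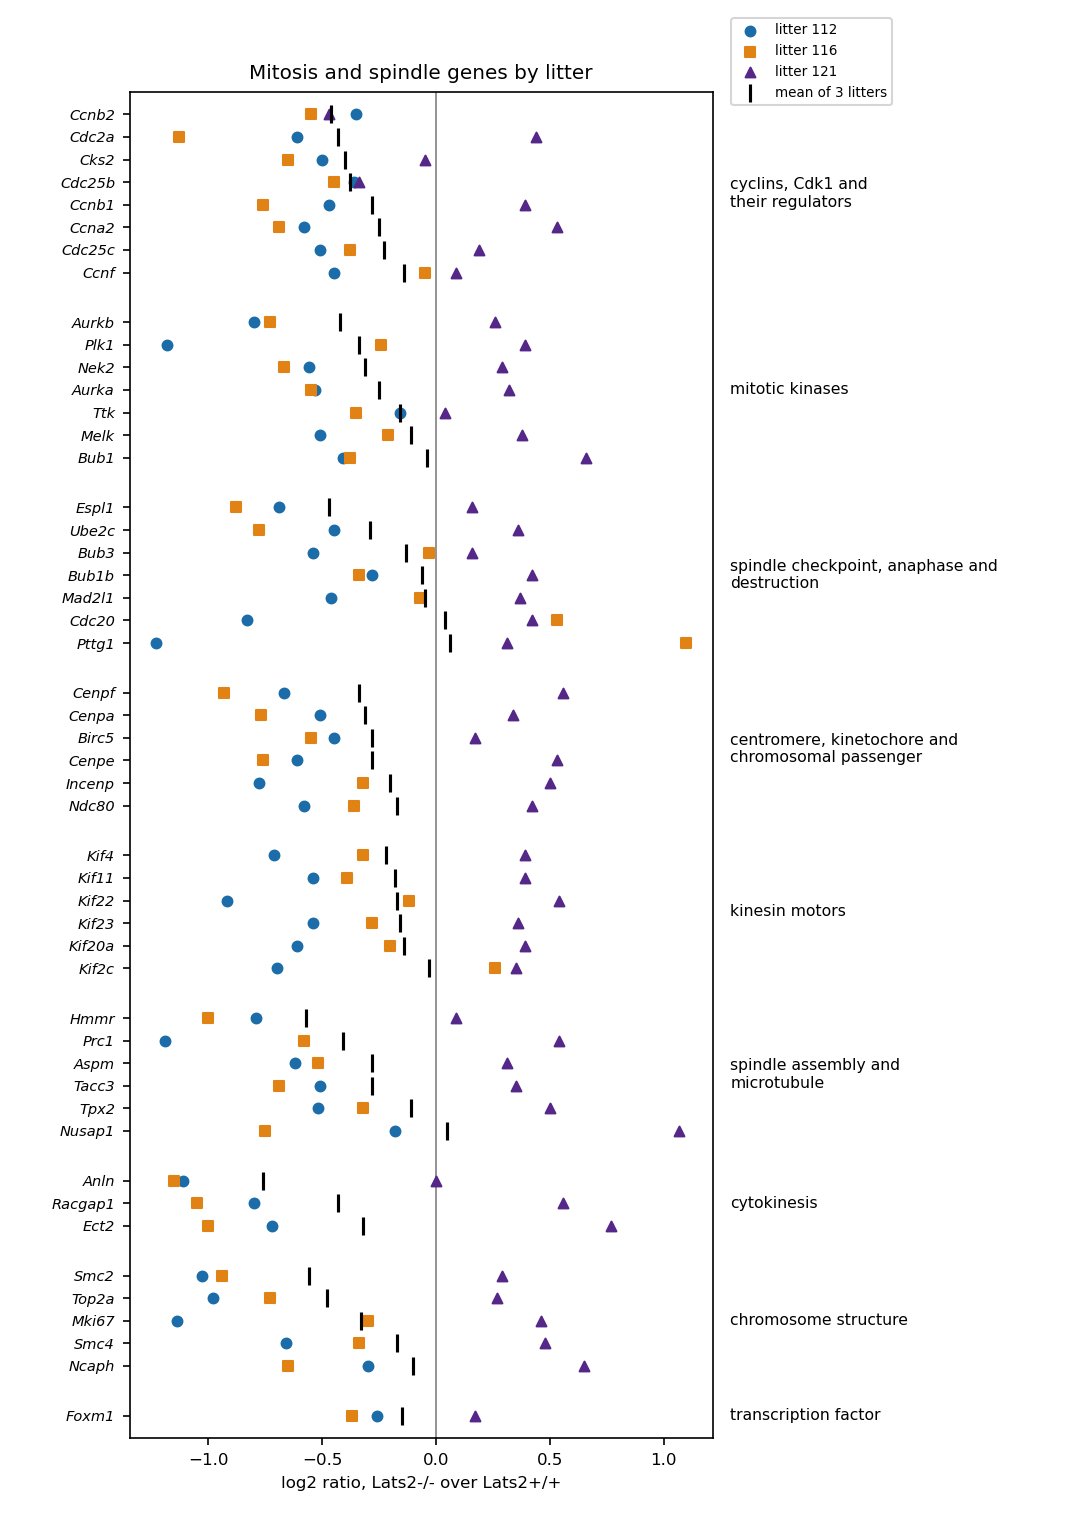
The log2 ratio of Lats2-/- over Lats2+/+ (x axis) is plotted for each of 49 genes (rows, grouped by role) in litters 112 (circles), 116 (squares) and 121 (triangles), with a black bar at the mean of the 3 litters. The triangles lie to the right of 0 for 45 genes, and the circles lie to the left of 0 for all 49.

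The individual arrays showed the same split. The median ratio of the 49 genes was -0.61 and -0.59 on the arrays of litter 112, -0.54 and -0.51 on those of litter 116, and 0.32 to 0.40 on the 4 arrays of litter 121. For 44 of 49 genes, every array of litter 121 gave a higher ratio than every array of the other litters, which held for 19.2% of all genes. With the sign of litter 121 turned, its array medians would be -0.40 to -0.32, and the same would hold for 18 of 49 genes, against 20.0% of all genes. Arrays of the same litter, which repeat the same extracts, differed for a median member by 0.11, 0.11 and 0.17. Ratios at least 2-fold below 0 were found for 6 genes in litter 112 (Pttg1, Prc1, Plk1, Mki67, Anln and Smc2) and for 5 in litter 116 (Anln, Cdc2a, Racgap1, Ect2 and Hmmr), against 1.46% and 3.68% of all genes. At least 2-fold above 0 were Pttg1 in litter 116, where 5.55% of all genes were, and Nusap1 in litter 121, where 4.04% were.

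Averaged over the litters, the genotypes did not differ past the test's threshold. The mean ratio was below 0 for 46 of 49 genes, against 47.1% of all genes, with a median of -0.25. Under limma's moderated test of 3 litter ratios with Benjamini-Hochberg adjustment over 22642 probes, 0 of the 77 member probes passed an adjusted p of 0.05, as did 0.0% of all probes, and the adjusted p-values of the 49 genes were 0.711 to 0.987. At an unadjusted p under 0.05 there were 4 member probes, all with a mean below 0, which is 5.19% of them against 3.29% of all probes. They belong to Ccnb2, Cdc25b (a pair of probes) and Anln. None had a mean above 0, against 3.56% of all probes. A ratio below 0 in all 3 litters was found for 4 genes (Ccnb2, Cdc25b, Cks2 and Anln), or 8.16% of the members against 14.1% of all genes, and no member was above 0 in all 3. With the sign of litter 121 turned, all 49 means would be below 0, with a median of -0.49. The share of all genes with such a mean was not counted. In that case 48 of 77 member probes would have an unadjusted limma p under 0.05 with a mean below 0, against 2.24% of all probes. After adjustment over all probes 0 would pass, among the members as among all probes (adjusted p of 0.994 to 0.999 for the members). The SD over litters was 0.06 to 1.19 among the members, with a median of 0.58.

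**Figure D2:**
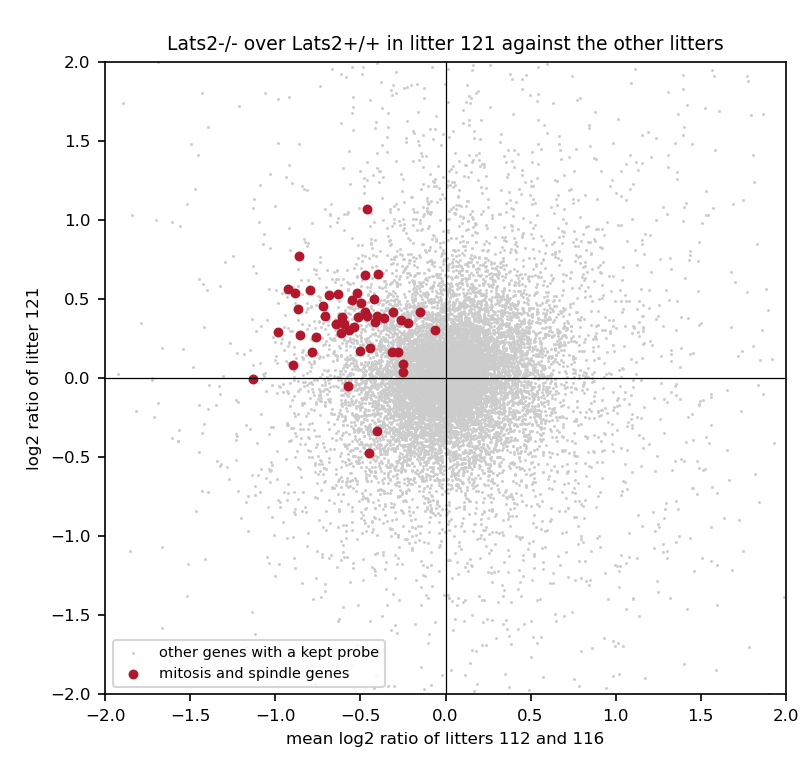
The log2 ratio of litter 121 (y axis) is plotted against the mean log2 ratio of litters 112 and 116 (x axis) for 49 mitosis and spindle genes (red) and the other genes with a usable probe (grey, 402 of which lie outside the axes). The red points lie in the upper left region except for Ccnb2, Cdc25b, Cks2 and Anln, which lie at or below 0 on the y axis.

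Without litter 121, all 49 genes had a mean below 0, with a median of -0.52, against a median of 0.02 over all genes. The share of all genes with such a mean was not counted. In that fit of 2 litters, 36 of 77 member probes, from 23 genes, had an unadjusted limma p under 0.05 with a mean below 0, where 3.1% of all probes did. Their direction is that of the litters that were kept. After adjustment 0 member probes passed, with adjusted p-values of 0.734 to 0.99, as did 0.0% of all probes.

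Signals of single extracts differed most among the cultures labelled wild type, and this rested on litter 121. Each gene's log2 signals were set against the gene's own mean over the 6 extracts. The median member stood at 0.72 in the wild type of litter 112, at 0.30 in that of litter 116 and at -0.64 in that of litter 121. The Lats2-/- extracts lay closer together, at 0.07, -0.16 and -0.28. Over all genes these medians lay between -0.03 and 0.02. The wild type of litter 112 was the highest of 6 extracts for 41 of 49 genes (18.1% of all genes), and the wild type of litter 121 was the lowest for 43 (15.0% of all genes). For 40 genes the wild types stood in the order 112, 116, 121 from high to low, against 20.0% of all genes. The range over the wild-type extracts exceeded that over the Lats2-/- extracts for 48 of 49 genes, the exception being Ccnb2 (1.34 against 1.45), and 48.0% of all genes had the larger range in wild type. The median range was 1.38 over wild-type extracts and 0.43 over Lats2-/- extracts. Without litter 121 the median gap between litters 112 and 116 was 0.38 in wild type and 0.31 in Lats2-/-, and it was the larger in wild type for 24 of 49 genes, against 50.6% of all genes. With the extracts of litter 121 exchanged, its wild type would stand at -0.28 and its Lats2-/- extract at -0.64, its wild type would be the lowest of 6 extracts for 3 of 49 genes (23.4% of all genes), and the wild types would stand in the order 112, 116, 121 for 39 genes (22.1% of all genes). The median ranges would then be 1.05 in wild type and 0.77 in Lats2-/-, and the range would be larger over wild-type extracts for 42 of 49 genes, against 60.4% of all genes. In litters 112 and 116 the wild type of litter 112 was still the highest of 4 extracts for 41 genes, against 24.6% of all genes. In bulk RNA, fewer dividing cells and less RNA per dividing cell cannot be told apart, and levels of litter 121 are set against the others across slides.

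**Figure D3:**
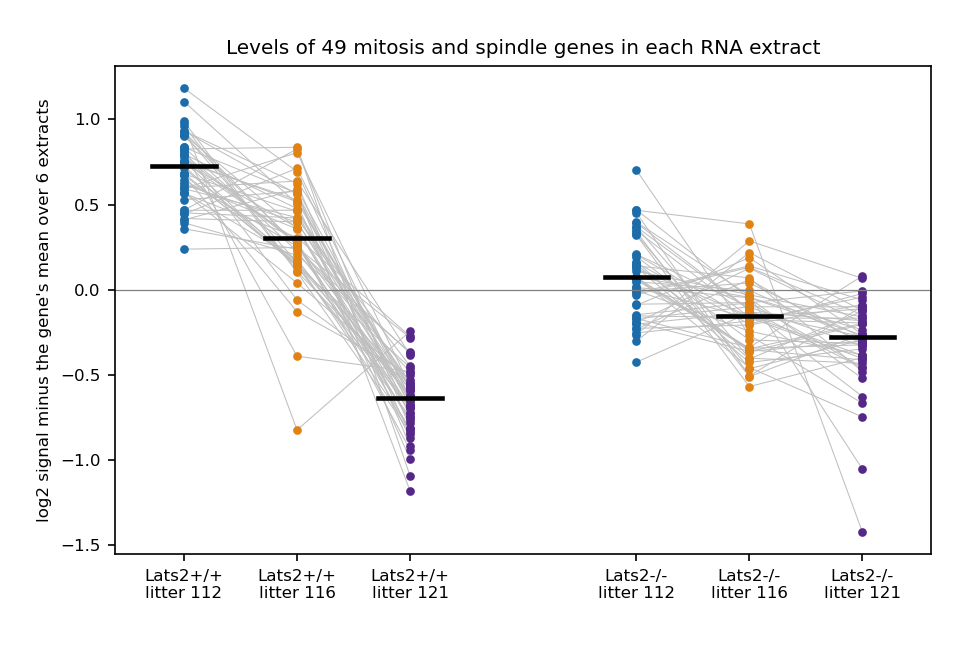
Each point is a gene's log2 signal in a single extract minus that gene's mean over the 6 extracts (y axis), with grey lines joining the values of a gene within a genotype and black bars at the medians of 49 genes. The wild-type medians are 0.72, 0.30 and -0.64, and the Lats2-/- medians are 0.07, -0.16 and -0.28.

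Other cell properties also differed between the litters. The summed signal of the 12 fibroblast markers was 247800, 597400 and 334100 in Lats2-/- of litters 112, 116 and 121, and 266800, 233600 and 478800 in the wild-type extracts. The median log2 ratio of these markers was 0.10, 1.95 and -0.95, beside -0.58, -0.52 and 0.37 for the mitosis genes, of opposite sign in each litter. Single markers ran from -0.54 to 3.26 in litter 112, -1.19 to 6.22 in litter 116 and -4.96 to 0.55 in litter 121. None passed the adjusted threshold. Of the usable neural markers, Nefl, a neurofilament subunit, had ratios of 1.61, -5.05 and -0.01, and Tubb3, a neuronal tubulin, had -0.84, 0.39 and 0.40. The part of these differences in the ratios of the mitosis genes was not tested.

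Among the cyclins, Cdk1 and their regulators, 8 of 8 genes were below 0 in litters 112 and 116, and 5 of 8 were above 0 in litter 121. None passed the adjusted threshold, and this group held both genes with an unadjusted limma p under 0.05 at their brightest probe, which are 4.08% of the 49 members, against 3.45% of all genes with such a p and a mean below 0. Ccnb1 (chromosome 13, 101879276 to 101879335, minus strand, coordinates of mouse build mm8 here and below) encodes cyclin B1, the activating partner of Cdk1 at the start of mitosis. Its log2 signal was 10.01, 9.50 and 9.66 in Lats2-/- (litters 112, 116 and 121 in turn), and 10.48, 10.26 and 9.27 in the wild types. As labelled, the wild types span both the highest and the lowest value, and the genotypes overlap. With the extracts of litter 121 exchanged, the lowest value, 9.27, would be Lats2-/-, and the genotypes would still overlap. The ratios were thus -0.47, -0.76 and 0.39 (mean -0.28 ± 0.59, SD, n = 3 litters, limma adjusted p = 0.837), and both other probes of the gene had the same signs. Ccna2 (chromosome 3, 36756605 to 36756664, minus strand), cyclin A2, which acts in S phase and at mitotic entry, had ratios of -0.58, -0.69 and 0.53 (mean -0.25 ± 0.68, limma adjusted p = 0.875). As labelled, its 3 Lats2-/- signals were nearly level, at 11.02, 11.09 and 11.09, beside wild-type signals of 11.60, 11.78 and 10.56. Exchanging the extracts of litter 121 would make the Lats2-/- signals 11.02, 11.09 and 10.56. Cdc2a (chromosome 10, 68738032 to 68740441, minus strand), the older name of Cdk1, the kinase that cyclins A and B activate, had -0.61, -1.13 and 0.44 (mean -0.43 ± 0.80, limma adjusted p = 0.806).

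Ccnb2 and Cdc25b departed from the common pattern. Ccnb2 (chromosome 9, 70207028 to 70207087, minus strand), cyclin B2, had log2 signals of 13.04, 12.61 and 11.59 in Lats2-/- and 13.40, 13.16 and 12.06 in wild type. As labelled, Lats2-/- was the lower extract in every litter, and both genotypes were lowest in litter 121. With litter 121 turned, Lats2-/- would be the higher extract there, and the mean ratio would be -0.14. The ratios were -0.35, -0.55 and -0.47 (mean -0.46 ± 0.10, limma adjusted p = 0.711), with an unadjusted limma p of 0.0124. Cdc25b (chromosome 2, 130889814 to 130889870, plus strand), a phosphatase that removes inhibitory phosphates from Cdk1, had signals of 11.52, 11.44 and 9.63 in Lats2-/- and 11.88, 11.89 and 9.96 in wild type. In litter 121 both genotypes lay far below the other litters, while the difference between genotypes, as labelled, was about the same in each. With litter 121 turned the difference would have the opposite sign there, and the mean ratio would be -0.16. Its ratios were -0.36, -0.45 and -0.34 (mean -0.38 ± 0.06, limma adjusted p = 0.711), with an unadjusted limma p of 0.0191. A second probe gave -0.36, -0.46 and -0.35, and a dim one gave -0.14, -0.42 and -0.09. The dye mattered for this gene, with single arrays between -0.63 and -0.10, and the equal dye swap averages it out. Cks2, a small Cdk-binding subunit, was also below 0 in each litter, at -0.50, -0.65 and -0.05, but its 4 arrays of litter 121 lay between -0.16 and 0.01. Cdc25c, a relative of Cdc25b, had -0.51, -0.38 and 0.19, and Ccnf, cyclin F, the substrate receptor of a ubiquitin ligase, had -0.45, -0.05 and 0.09.

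All 7 mitotic kinases were below 0 in litters 112 and 116 and above 0 in litter 121. Plk1 (chromosome 7, 121960854 to 121960913, plus strand), polo-like kinase 1, which acts on centrosomes and cytokinesis, had log2 signals of 11.75, 11.82 and 11.77 in Lats2-/- and 12.94, 12.06 and 11.37 in wild type. As labelled, the Lats2-/- extracts were almost equal, and the wild types fell on both sides of them. With the extracts of litter 121 exchanged, Lats2-/- would be at 11.75, 11.82 and 11.37, and wild type at 12.94, 12.06 and 11.77. Its ratios were -1.18, -0.24 and 0.39 (mean -0.34 ± 0.79, limma adjusted p = 0.846). Aurka (chromosome 2, 172047439 to 172047498, minus strand), the centrosomal Aurora A kinase, had -0.53, -0.55 and 0.32 (mean -0.25 ± 0.50, limma adjusted p = 0.83). Aurkb (chromosome 11, 68867730 to 68867789, plus strand), the kinase of the chromosomal passenger complex, had -0.80, -0.73 and 0.26 (mean -0.42 ± 0.59, limma adjusted p = 0.765). Of the remaining kinases, Nek2, Ttk and Bub1 act on the centrosome or the checkpoint. Nek2, a kinase of centrosome separation, had -0.56, -0.67 and 0.29, and Ttk, a kinase of the spindle checkpoint, had -0.16, -0.35 and 0.04. Melk had -0.51, -0.21 and 0.38. Bub1, a checkpoint kinase at kinetochores, had -0.41, -0.38 and 0.66.

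Of the 7 spindle checkpoint and anaphase genes, 5 had the pattern shared by most members, and Pttg1 and Cdc20 did not. Pttg1 (chromosome 11, 43263722 to 43263781, minus strand), securin, which holds separase inactive until anaphase, had log2 signals of 12.04, 12.59 and 12.37 in Lats2-/- and 13.28, 11.48 and 12.06 in wild type. Its lowest extract was the wild type of litter 116, unlike most members, whose lowest as labelled was the wild type of litter 121. Its ratios were -1.23, 1.1 and 0.31 (mean 0.06 ± 1.19, limma adjusted p = 0.986), the highest mean of the 49 genes as labelled. With litter 121 turned the mean would be -0.15, and Ccnb2 would be the highest at -0.14. Cdc20 (chromosome 4, 117930863 to 117930922, minus strand), the co-activator of the anaphase-promoting complex, also changed sign between litters 112 and 116, at -0.83, 0.53 and 0.42 (mean 0.04 ± 0.75, limma adjusted p = 0.985). Bub1b (chromosome 2, 118332535 to 118332594, plus strand), a component of the mitotic checkpoint complex, had -0.28, -0.34 and 0.42 (mean -0.06 ± 0.42, limma adjusted p = 0.958). The remaining genes of the group kept the common pattern. Espl1, separase itself, had -0.69, -0.88 and 0.16, and Ube2c, a ubiquitin-conjugating enzyme of the anaphase-promoting complex, had -0.45, -0.78 and 0.36. The checkpoint proteins Mad2l1 and Bub3 were near 0 in litter 116, at -0.07 and -0.03. As labelled, Bub3 had the smallest range over wild-type extracts of any member, 0.53.

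The 6 centromere, kinetochore and chromosomal passenger genes all had the common pattern, with group medians of -0.60, -0.66 and 0.46 in litters 112, 116 and 121. Cenpe (chromosome 3, 135210810 to 135210869, plus strand), a kinetochore motor that moves chromosomes to the spindle equator, had signals of 11.85, 11.68 and 12.10 in Lats2-/- and 12.47, 12.44 and 11.57 in wild type. Here, as labelled, litter 121 held the highest Lats2-/- extract and the lowest wild type. With its extracts exchanged it would hold the lowest of both genotypes, at 11.57 in Lats2-/- and 12.10 in wild type. The ratios were -0.61, -0.76 and 0.53 (mean -0.28 ± 0.71, limma adjusted p = 0.862), with the same signs at both other probes. Cenpf, a large kinetochore protein, had -0.67, -0.93 and 0.56, and Cenpa, the centromeric histone variant, had -0.51, -0.77 and 0.34. Ndc80, which binds the kinetochore to microtubules, had -0.58, -0.36 and 0.42. Among the chromosomal passengers, Incenp, the scaffold of the complex, had -0.78, -0.32 and 0.50, and Birc5, survivin, had -0.45, -0.55 and 0.17.

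Of the 6 kinesin motors, 5 had the common pattern, and the group stood lower in litter 112 (median -0.65) than in litter 116 (median -0.24). Kif11 (chromosome 19, 37486409 to 37486468, plus strand), which pushes the spindle poles apart, had -0.54, -0.39 and 0.39 (mean -0.18 ± 0.50, limma adjusted p = 0.883). Kif22, a motor on chromosome arms, ranged from -0.92 in litter 112 to 0.54 in litter 121, with -0.12 in litter 116. The exception was Kif2c, which depolymerises microtubules at centromeres, with -0.70, 0.26 and 0.35. The motors Kif23 and Kif20a of the central spindle had -0.54 and -0.61 in litter 112, -0.28 and -0.20 in litter 116, and 0.36 and 0.39 in litter 121. Kif4, a chromosome-bound kinesin, had -0.71, -0.32 and 0.39.

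The 6 spindle assembly genes also had the common pattern at their brightest probes. Tpx2 (chromosome 2, 152585181 to 152585240, plus strand), which activates Aurora A on the spindle, had -0.52, -0.32 and 0.50 (mean -0.11 ± 0.54, limma adjusted p = 0.942). Prc1 (chromosome 7, 80189665 to 80189717, plus strand), which bundles microtubules of the central spindle, had log2 signals of 11.98, 11.99 and 11.61 in Lats2-/- and 13.17, 12.57 and 11.07 in wild type. As labelled, all Lats2-/- values fell between the wild types of litters 116 and 121. Exchanging the extracts of litter 121 would put its Lats2-/- value, at 11.07, below all wild types. The ratios were -1.19, -0.58 and 0.54 (mean -0.41 ± 0.88, limma adjusted p = 0.833). Hmmr, a spindle-associated hyaluronan receptor, had a low mean (-0.57), with -0.79 in litter 112 and 0.09 in litter 121. Nusap1, a microtubule-binding protein of the spindle, reached 1.07 in litter 121 at its brightest probe, after -0.18 and -0.75 in the other litters. A second, dim probe of Nusap1 gave 0.02, -0.54 and 0.09, and it was the single case among 21 genes with several usable probes where probes differed in the sign of a litter. Aspm, a spindle pole protein, had -0.62, -0.52 and 0.31, and Tacc3, which stabilises spindle microtubules, had -0.51, -0.69 and 0.35.

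Cytokinesis genes were the lowest group by median in litter 116 (-1.05). Anln (chromosome 9, 22084524 to 22088340, minus strand), anillin, a scaffold of the contractile ring, had signals of 9.15, 8.62 and 8.33 in Lats2-/- and 10.26, 9.77 and 8.33 in wild type. The genotypes differed in litters 112 and 116 and were level in litter 121, where the sign turned with the dye (-0.14 to 0.14 on single arrays). Its ratios were -1.11, -1.15 and -0.00 (mean -0.76 ± 0.65, limma adjusted p = 0.711), the lowest mean of the 49 genes as labelled. With litter 121 turned it would be -0.75, and Ect2, Racgap1 and Prc1 would lie lower, at -0.83, -0.81 and -0.77. A second probe gave -1.30, -1.11 and -0.11 with an unadjusted limma p of 0.0436. Ect2, an activator of RhoA at the cleavage furrow, had -0.72 in litter 112 and 0.77 in litter 121, the largest gap between litter 121 and the mean of the others as labelled (1.64, and 0.09 with litter 121 turned). Racgap1, the partner that recruits Ect2 to the central spindle, had -0.80, -1.05 and 0.56.

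The 5 chromosome structure genes had the common pattern, with group medians of -0.98, -0.65 and 0.46. Top2a (chromosome 11, 98812020 to 98812834, minus strand), the topoisomerase that untangles sister chromatids, had -0.98, -0.73 and 0.27 (mean -0.48 ± 0.66, limma adjusted p = 0.761). Mki67 (chromosome 7, 135528251 to 135528310, minus strand), the Ki-67 antigen used to mark cycling cells, had signals of 12.17, 12.46 and 12.08 in Lats2-/- and 13.31, 12.76 and 11.62 in wild type. As labelled, the wild types again bracket the Lats2-/- extracts. With the extracts of litter 121 exchanged they would not, since its Lats2-/- extract, at 11.62, would lie below all wild types. Its ratios were -1.14, -0.30 and 0.46 (mean -0.33 ± 0.80, limma adjusted p = 0.854). The condensin subunit Smc2 had -1.03, -0.94 and 0.29, and its 4 probes shared these signs. Smc4, its partner, had -0.66, -0.34 and 0.48, and Ncaph, another condensin subunit, had -0.30, -0.65 and 0.65.

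Foxm1 (chromosome 6, 128340384 to 128340443, plus strand), the transcription factor that drives many late cell cycle genes, was closer to 0 than the median member in each litter. Its log2 signal was 10.84, 9.87 and 9.47 in Lats2-/- and 11.10, 10.24 and 9.30 in wild type. Both genotypes were highest in litter 112 and lowest in litter 121. As labelled, the range over the Lats2-/- extracts was 1.37, and 3 other members (Cdc25b, Ccnb2 and Cdc25c) also had one above 1. With the extracts of litter 121 exchanged, the median range of the 49 members over Lats2-/- extracts would be 0.77 in place of 0.43. The members above 1 were not counted for that case. The ratios were -0.26, -0.37 and 0.17 (mean -0.15 ± 0.29, limma adjusted p = 0.843).

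Genes of neighbouring processes were examined in the same fit. Of the 53 further mitosis genes with a usable probe, 43 were below 0 in litters 112 and 116 and above 0 in litter 121, with medians of -0.46, -0.46 and 0.31. The 45 DNA replication genes resembled them in litters 112 and 116 (medians -0.56 and -0.63) but lay near 0 in litter 121 (median 0.12), and 27 had the full pattern. Mcm6, a subunit of the replicative helicase, was below 0 in each litter, at -0.73, -0.76 and -0.54 (mean -0.68 ± 0.12, limma adjusted p = 0.711). Pcna, the sliding clamp of the polymerases, had -0.47, -0.99 and 0.40. Among 18 E2F, RB and MuvB genes, which encode regulators of cell cycle transcription, 8 had the pattern, with medians of -0.26, -0.46 and 0.11. The 13 genes for subunits and an activator of the anaphase-promoting complex had medians of 0.01, 0.09 and 0.06, and 2 had the pattern. None of these genes passed the adjusted threshold, and 1 further mitosis gene and 3 DNA replication genes had an unadjusted limma p under 0.05, all with a mean below 0, as had 3.45% of all genes. Without litter 121, the median of the mean ratio was -0.47 for the further mitosis genes, -0.56 for the DNA replication genes, -0.31 for the E2F, RB and MuvB genes and 0.09 for the anaphase-promoting complex, beside -0.52 for the mitosis and spindle genes. The differences between lists were not tested.

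**Figure D4:**
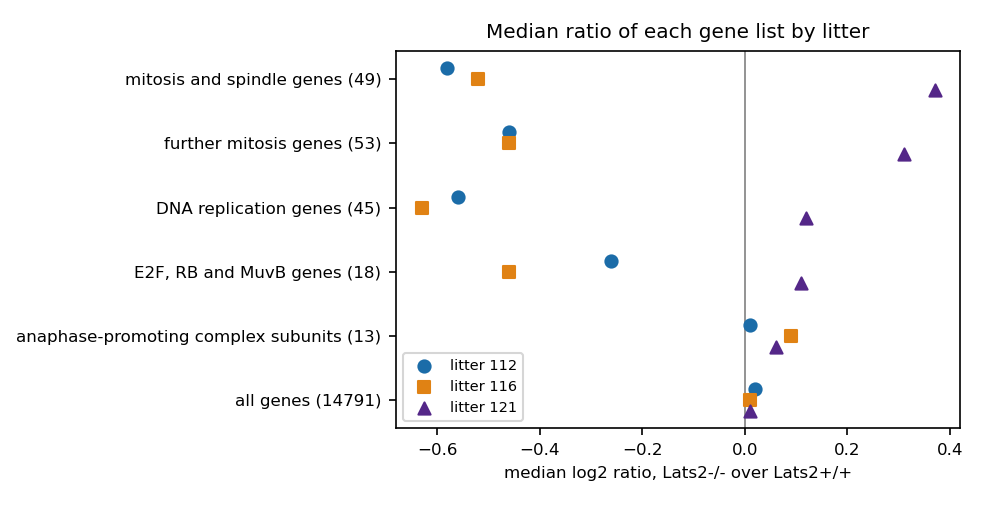
The median log2 ratio of Lats2-/- over Lats2+/+ (x axis) is plotted for each gene list (rows, number of genes in parentheses) in litters 112, 116 and 121. The mitosis and spindle genes lie at -0.58, -0.52 and 0.37, and the anaphase-promoting complex subunits lie between 0.01 and 0.09.

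Because the members shared a pattern over the litters, their promoters were read for the elements known from late cell cycle genes. These are the cell cycle homology region, searched as TTTGAA or TTCGAA, and the CCAAT box, searched as CCAAT, each on both strands. TTCGAA reads the same on both strands, and no motif lies within another. RefSeq promoter windows of 300 bases (250 before and 50 after the start, build GRCm38.p6) were found for 41 members, in 44 windows. TTTGAA or TTCGAA occurred in 33 of 44 windows, or 75.0%, against 19.2% of 32851 windows of all genes. CCAAT occurred in 34 of 44, or 77.3%, against 37.4%, and both motifs occurred in 30 of 44, or 68.2%, against 7.52%. A match describes letters and is not a binding site. The gap between litter 121 and the mean of the other litters had a median of 0.96 among the 30 genes with TTTGAA or TTCGAA and of 0.90 among the 11 without, and the ranges overlapped (-0.02 to 1.64 and 0.37 to 1.53). In litters 112 and 116 alone, the median of the mean ratio was -0.55 and -0.50 in these groups. Split by CCAAT, the gap had a median of 0.97 among the 31 genes with it and of 0.82 among the 10 without, with the same overlapping ranges, and the median of the mean ratio in litters 112 and 116 was -0.61 and -0.47.

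The promoters printed are those of the 6 genes with the largest such gap (1.28 to 1.64) among those that hold a motif, shown as examples from the end of the list where litter 121 and the others lie furthest apart as labelled. With litter 121 turned, their gaps would be 0.09 (Ect2), 0.36 (Racgap1), 0.35 (Prc1), 0.24 (Cenpf), 0.43 (Cdc2a) and 0.69 (Smc2), and Anln would have the largest of the members, at 1.14. They lie in GRCm38.p6 as follows: Ect2 at chr3:27153829-27154128 on the minus strand, Racgap1 at chr15:99651607-99651906 on the minus strand, Prc1 at chr7:80294201-80294500 on the plus strand, Cenpf at chr1:189688037-189688336 on the minus strand, Cdc2a at chr10:69352863-69353162 on the minus strand and Smc2 at chr4:52438971-52439270 on the plus strand. Capitals mark both kinds of motif on either strand, and each sequence runs 5′ to 3′ along the gene's strand.
Ect2: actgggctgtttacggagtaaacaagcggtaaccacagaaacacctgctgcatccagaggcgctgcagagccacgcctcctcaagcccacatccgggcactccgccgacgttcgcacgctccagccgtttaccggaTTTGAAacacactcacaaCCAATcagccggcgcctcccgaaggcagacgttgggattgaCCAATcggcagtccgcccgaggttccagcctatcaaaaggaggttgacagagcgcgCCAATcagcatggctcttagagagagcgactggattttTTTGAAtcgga
Racgap1: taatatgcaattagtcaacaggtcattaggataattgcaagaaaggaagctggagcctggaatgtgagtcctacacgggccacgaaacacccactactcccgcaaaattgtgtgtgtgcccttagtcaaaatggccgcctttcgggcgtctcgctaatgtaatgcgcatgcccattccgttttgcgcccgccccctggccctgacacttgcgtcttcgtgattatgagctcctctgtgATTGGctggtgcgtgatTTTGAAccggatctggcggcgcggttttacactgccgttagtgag
Prc1: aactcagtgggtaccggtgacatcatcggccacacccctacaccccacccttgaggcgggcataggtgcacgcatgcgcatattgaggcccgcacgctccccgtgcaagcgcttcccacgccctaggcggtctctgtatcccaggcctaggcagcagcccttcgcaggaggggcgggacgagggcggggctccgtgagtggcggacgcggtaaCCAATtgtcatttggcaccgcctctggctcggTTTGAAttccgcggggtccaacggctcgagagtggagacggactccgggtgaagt
Cenpf: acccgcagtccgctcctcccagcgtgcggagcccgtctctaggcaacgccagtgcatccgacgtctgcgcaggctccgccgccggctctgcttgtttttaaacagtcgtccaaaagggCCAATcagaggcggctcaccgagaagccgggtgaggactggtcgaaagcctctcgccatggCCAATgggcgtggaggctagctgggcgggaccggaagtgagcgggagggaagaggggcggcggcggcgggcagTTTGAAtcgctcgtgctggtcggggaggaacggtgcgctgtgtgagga
Cdc2a: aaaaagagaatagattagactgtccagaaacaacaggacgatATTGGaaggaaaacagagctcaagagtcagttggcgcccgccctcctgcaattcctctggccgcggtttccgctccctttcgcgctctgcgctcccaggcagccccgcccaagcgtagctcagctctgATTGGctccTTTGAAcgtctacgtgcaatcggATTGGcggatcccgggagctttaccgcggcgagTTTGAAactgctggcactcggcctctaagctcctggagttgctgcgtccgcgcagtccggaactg
Smc2: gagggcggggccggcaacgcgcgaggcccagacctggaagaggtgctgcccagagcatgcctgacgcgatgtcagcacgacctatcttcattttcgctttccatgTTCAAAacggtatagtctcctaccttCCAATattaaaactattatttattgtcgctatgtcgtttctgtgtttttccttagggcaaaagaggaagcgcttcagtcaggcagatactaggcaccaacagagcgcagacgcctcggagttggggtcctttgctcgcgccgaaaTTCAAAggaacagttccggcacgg
Each of the 6 holds both kinds of motif, as do 27 of the 41 members with a window. Holding a motif was a condition for being printed. Nusap1, whose gap was 1.53 as labelled, holds neither and was left out. Ect2, Cdc2a and Smc2 hold TTTGAA or its reverse complement at 2 places, and Ect2 and Cdc2a hold CCAAT or its reverse complement at 3.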

How the data were processed

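Total RNA of 6 MEF extracts was hybridised by the authors to 8 Agilent whole mouse genome arrays of 2 colours. The deposited scanner files give spot and background intensity on a linear scale without normalization, together with processed intensity. The file headers name Agilent Feature Extraction 10.7.3.1, and the submitters' processing notes name 10.5.1.1. The deposited value table holds log10 ratios, and log2 ratios were computed from the intensities here.

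Intensities were background corrected with normexp (offset 50) and normalized by loess within each array in limma 3.58.1 (R 4.3.3). Control spots and 860 outlier spots were left out, and 0 gene spots were saturated. Ratios were turned to Lats2-/- over Lats2+/+, repeat spots and then arrays of the same litter were averaged, so that n is 3 litters. The pairing by litter is that of the arrays. A probe was usable if well above background in at least 2 of 3 extracts of either genotype. Signals per extract followed Aquantile scaling between arrays. The test was limma's moderated test against 0 (two-sided), adjusted by Benjamini-Hochberg over 22642 probes. Precision is limited by having 8 arrays and 3 litters, and p-values measure only the spread between these cultures.

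The members, gene lists and tests were chosen with earlier results of these data known. Full statistics are given for 16 genes that cover each role, for every member with an unadjusted p under 0.05 and for the members with the highest and lowest mean. Members were matched by gene name, and accessions found 0 further probes. Probe positions are those of mm8 in the files, and no annotation of that build was used. The alternatives were offset 16, processed signals, the deposited value table, median centring, other filters, each litter left out, no pairing, random blocks, the methods' t-test and averaged probes.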

Additional observations from a re-analysis of the deposited data

How the results depend on the processing

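Under offset 16, processed signals, the deposited value table, median centring, the other filters, averaged probes and matching by accession, the count of genes below 0 in litters 112 and 116 and above 0 in litter 121 stayed between 42 and 43, and the count with 1 sign in all 3 litters between 3 and 4. With slide 2 alone (litter 121) the median log2 ratio of the members was 0.37 in place of -0.25. Leaving out each litter in turn gave medians of -0.52 to -0.09 and 0 to 36 member probes at an unadjusted p under 0.05, with 36 without litter 121 (6.43% of all probes), 0 without litter 116 (5.53%) and 1 without litter 112 (5.06%), and with 4 of 77 in the full set (6.84%). It moved the means of 16 of the 19 genes with full statistics by over 1.5 times or across 0, the exceptions being Anln, Ccnb2 and Cdc25b. Those of Prc1 (-0.89 to -0.02), Cdc2a (-0.87 to -0.09), Cenpe (-0.69 to -0.04), Ccna2 (-0.63 to -0.03) and Ccnb1 (-0.61 to -0.04) kept their sign. It moved the mean of Plk1 between -0.71 and 0.08, of Bub1b between -0.31 and 0.07, of Kif11 between -0.46 and 0.00, of Tpx2 between -0.42 and 0.09, of Mki67 between -0.72 and 0.08, of Cdc20 between -0.20 and 0.48 and of Pttg1 between -0.46 and 0.71. Without pairing (no replicate block) 0 member probes had an unadjusted p under 0.05, where 2.45% of all probes did. With litter as a random block and a dye term there were 13, where 12.6% of all probes had one. With slide as a random block 1 member probe, of Ccnb2, passed the adjusted threshold (mean -0.46, adjusted p = 0.0146, where 3.17% of all probes passed), and the means of Bub1b and Tpx2 were 0.06 and 0.04. That fit counts the arrays of a litter as if they were separate extracts. With median centring the mean of Cdc20 was -0.00. The median log2 ratio under the slide block was -0.11. The cause of these shifts was not tested. Counts of signs need all litters, so none was made with a litter left out, and the methods' t-test called 0 member probes after adjustment (0.0% of all probes) and 3 of 77 before it (5.95% of all probes). With the sign of litter 121 turned, chosen after seeing the data, the median was -0.49, 48 member probes had an unadjusted p under 0.05, 42 genes had 1 sign in all 3 litters and 4 had the pattern as labelled, the range of the Lats2-/- extract medians was 0.71 in place of 0.35, that of the wild-type extract medians was 1.0 in place of 1.37, and the means of Cdc20 and Pttg1 were -0.24 and -0.15.

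The limits are the 3 litters, of which litter 121 opposes the others as labelled and lies alone on its slide, and the SD over litters. As labelled, that SD exceeded the size of the mean for most members. With litter 121 turned, 42 genes would be below 0 in all 3 litters, with a median mean of -0.49, and the SD was not computed for that case. The dim probes hold less information: the second probe of Nusap1 gave 0.09 in litter 121 where the brightest gave 1.07.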
